A study of Mus musculus with 52 samples.

Results

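Klf2, Klf4 and Klf5 are zinc-finger transcription factors of the Krüppel-like family that help hold mouse embryonic stem (ES) cells in the self-renewing state. They were followed through 13 comparisons among 7 mouse ES lines, as the probes whose platform symbol is Klf2, Klf4 or Klf5. Each had 1 probe, so 3 of 9030 named genes on the array are described (3 of 20794 probes). The 52 two-colour cDNA arrays carried 4 arrays for each comparison, with the line on top of the ratio in Cy5 on arrays 1 and 2 and in Cy3 on arrays 3 and 4. The lines were HM-1 NT, B6NT, B6PGA, PDCUMNT, ZFCUMNT, #4 (B6) and HM-1, cultured ES cells with no treatment named. HM-1 has long served as a parent line in gene targeting work. The series title speaks of different sources of donor nuclei. The labels give neither genotype nor passage, leave NT, B6, PGA, PD and ZF unexplained, and do not say whether the 4 arrays of a comparison came from separate cultures. The p-values may therefore measure technical spread only, and each line stands for itself and not for a kind of line.

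The 3 factors bind a shared set of sites through GC-rich and CACCC-like sequences, and in mouse ES cells they activate pluripotency genes together with Oct4, Sox2 and Nanog. Their removal together, rather than of any one alone, leads mouse ES cells to differentiate. Klf4, also one of the factors used to reprogram fibroblasts, is a target of leukaemia inhibitory factor (LIF) acting through Stat3. Klf2 is tied to Oct4 and is kept down by Mek and Erk signalling, and Klf5 is needed for the early embryo's inner cell mass and trophectoderm.

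Every value here is a log2 ratio, turned by the dye labels so that the line named first is on top. The labels name neither the log base nor the numerator dye of the deposited ratios, so log2 is a reading, and the sign rests on the reading Cy5 over Cy3: if it is Cy3 over Cy5, every sign in the text turns at once. A gene was called in a comparison at an adjusted p under 0.05, with limma and the Benjamini-Hochberg method over all features, where a feature is a named gene or an unnamed probe. A ratio gives no absolute level, so the label of the lines as ES cells cannot be checked by asking whether Pou5f1 or other markers are present. Correlation of single arrays with the other comparisons was weak: 44 of the 52 arrays correlated positively with the differences that the other comparisons predict for them, with a median correlation of 0.043 over features. The 8 that did not were arrays 3 and 4 of #4 (B6) over HM-1, arrays 1 and 2 of PDCUMNT over HM-1, arrays 1, 3 and 4 of ZFCUMNT over HM-1 NT and array 3 of ZFCUMNT over PDCUMNT. The Klf4 and Klf5 calls are given with and without them. The dye effect was not taken out of the single arrays here, and 30.3% of features were called for one. In #4 (B6) over HM-1 the correlations were 0.116 and 0.125 on arrays 1 and 2. They were -0.046 and -0.041 on arrays 3 and 4, in the other dye orientation. ZFCUMNT over HM-1 NT had -0.012 and 0.097 on arrays 1 and 2, and -0.059 and -0.022 on arrays 3 and 4. A correlation at or below 0 does not by itself show that a label is wrong. Whether a dye effect or a label lies behind it was not tested.

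Klf4 (Entrez gene 16600, chromosome 4; probe 1847) was measured on all 52 arrays and had the clearest pattern of the 3. Its promoter from RefSeq (GRCm38.p6, chr4:55532426-55532725, minus strand, 250 bases before to 50 after the start) is shown because GC boxes and CACCC boxes are the letters that Klf proteins bind, and the family is known to act on its own genes. GC boxes (GGGCGG on either strand) are in capitals:
Klf4: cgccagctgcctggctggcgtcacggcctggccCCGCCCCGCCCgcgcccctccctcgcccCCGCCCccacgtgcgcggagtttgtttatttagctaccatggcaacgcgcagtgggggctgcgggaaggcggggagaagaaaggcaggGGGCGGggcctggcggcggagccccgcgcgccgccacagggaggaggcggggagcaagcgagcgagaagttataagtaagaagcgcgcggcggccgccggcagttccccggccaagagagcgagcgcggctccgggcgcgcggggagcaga
This window holds 4 GC boxes, 2 of which share a base, and 35.7% of 32851 mouse promoter windows of the same length hold at least 1. It holds no CACCC on either strand, which 57.5% of windows do, and no TTCCNGGAA, the Stat-type motif, which 1.15% do. Its GC content was 74.3%, against a median of 52.7% over all windows. Klf2 (Entrez gene 16598, chromosome 8) had 2 GC boxes and 1 CACCC in its window, and Klf5 (Entrez gene 12224, chromosome 14) is named only. A match is a description of the letters and no evidence of binding.

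Klf4 differed most in comparisons with #4 (B6), whose values were the lowest under the sign used here. B6PGA over #4 (B6) had log2 ratios of 1.556, 2.069, 1.770 and 1.826 on arrays 1 to 4. All 4 arrays were positive in both dye orientations, and the fit gave 1.81 ± 0.18 (SE, n = 4 arrays, adjusted p = 2.15e-08, 95% confidence interval 1.44 to 2.17), a 3.49-fold difference. In that comparison 1.22% of the 15535 features tested were called. Without any 1 of its arrays the value stayed between 1.74 and 1.91 and the call was kept. Left unturned, as deposited, the 2 orientations had opposite signs and the value was 0.01.

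B6NT over #4 (B6) had 1.384, 0.588, 1.331 and 0.744, again positive on every array and with the spread lying within, not between, the dye orientations. The fit was 1.01 ± 0.18 (adjusted p = 0.00169), where 0.245% of features were called. Leaving out array 1 or array 3 ended the call (adjusted p = 0.0531 and 0.0647).

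#4 (B6) over HM-1 had -0.714, -1.025, -0.866 and -0.668, all negative. The fit was -0.82 ± 0.18 (adjusted p = 0.0291), in a comparison where 0.219% of features were called. This is the least secure of the 3 calls: it was lost without any 1 of its 4 arrays (adjusted p from 0.062 to 0.273). Without arrays 3 and 4, which did not correlate positively with the other comparisons over all features, the comparison could not be tested. On Klf4 itself arrays 3 and 4 had the sign and size of arrays 1 and 2. The other 12 comparisons, which do not use these arrays, put #4 (B6) over HM-1 at -1.05 ± 0.14.

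The fourth comparison with #4 (B6) was not called. ZFCUMNT over #4 (B6) had 0.819, 0.740 and 0.836 on arrays 1 to 3 and -0.011 on array 4, with a fit of 0.60 ± 0.18 (adjusted p = 0.098, where 0.935% of features were called). Array 4 lay apart from the other 3, and without it the value was 0.78 with an adjusted p of 0.0302.

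**Figure D1:**
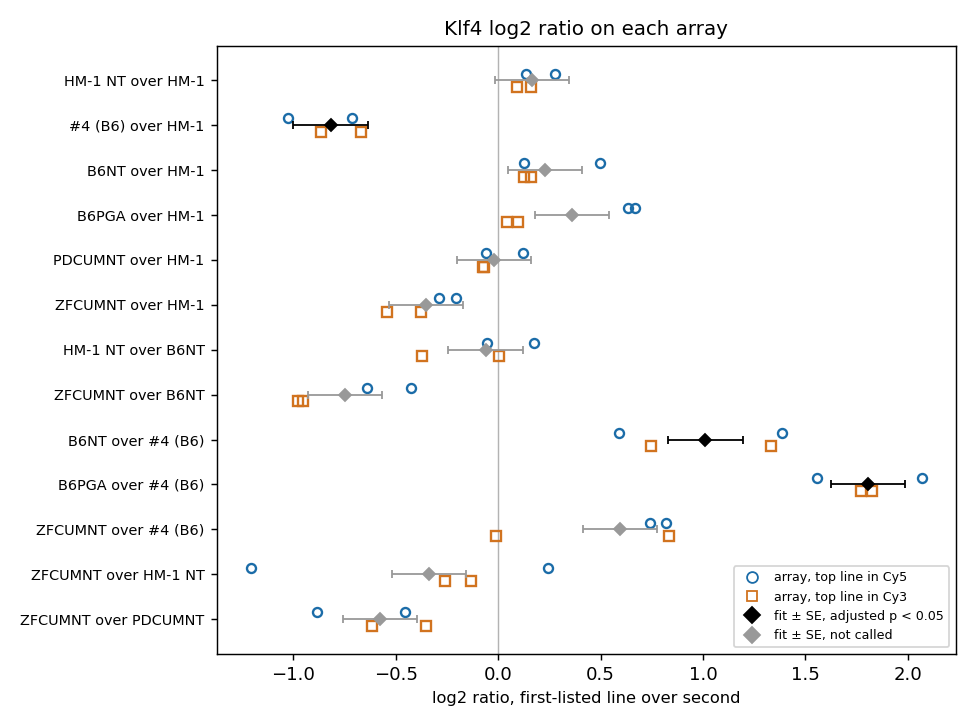
Klf4 log2 ratios on each of the 52 arrays, by comparison, with the line named first on top of the ratio. Circles are arrays with that line in Cy5, squares arrays with it in Cy3, and diamonds the fit with its standard error, black where called. B6PGA over #4 (B6) lies furthest from 0, at 1.81, and #4 (B6) over HM-1 is the called comparison on the negative side.

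The 9 comparisons without #4 (B6) gave no Klf4 call. The largest was ZFCUMNT over B6NT, with -0.426, -0.642, -0.976 and -0.954, negative on all 4 arrays, and a fit of -0.75 ± 0.18 (adjusted p = 0.0967, where 0.124% of features were called). It passed under 4 alternatives, with adjusted p-values of 0.0489 with array medians subtracted, 0.00388 with arrays scaled to equal spread, 0.0497 with the constant top values kept and 0.0136 with array weights. ZFCUMNT over PDCUMNT was negative on all 4 arrays too, at -0.886, -0.455, -0.615 and -0.351 (fit -0.58, adjusted p = 0.116, where 0.763% of features were called).

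ZFCUMNT over HM-1 had -0.207, -0.287, -0.378 and -0.545, for a fit of -0.35. B6PGA over HM-1 was split by dye: 0.632 and 0.667 with B6PGA in Cy5, against 0.095 and 0.045 with it in Cy3 (fit 0.36). ZFCUMNT over HM-1 NT had 0.245 on array 1, -1.208 on array 2, -0.135 on array 3 and -0.258 on array 4 (fit -0.34), so its arrays were of both signs.

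Against HM-1 the remaining lines lay close to 0. HM-1 NT over HM-1 had 0.134, 0.275, 0.162 and 0.092 (fit 0.17), positive throughout but under 0.3 on every array. B6NT over HM-1 had 0.496, 0.125, 0.128 and 0.162 (fit 0.23), with array 1 apart from the others. PDCUMNT over HM-1 had -0.059, 0.119, -0.067 and -0.074 (fit -0.02), and HM-1 NT over B6NT had 0.173, -0.055, 0.006 and -0.370 (fit -0.06), both with arrays of either sign.

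Klf4 thus had 4 arrays of 1 sign in 9 of 13 comparisons. Over all features and comparisons 14.3% of the sets of 4 measured arrays were of 1 sign, and 5 of the 5620 features with 4 arrays in every comparison (0.089%) reached 9 or more. Calls in 3 or more comparisons were seen for 34 of 11291 features tested in all 13 (0.301%), Klf4 included. Array spread bears on this: the standard deviation of Klf4 around the fit was 0.291, and 0.463% of features had a smaller one, against a median of 0.902.

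A pair of comparisons each set a line labelled NT against the line whose name it shares. The Klf4 value was 0.17 for HM-1 NT over HM-1 and 1.01 for B6NT over #4 (B6), and these share neither an array nor a line. The test of the difference gave -0.85 ± 0.26 (HM-1 pair minus B6 pair), with an adjusted p of 0.274 in limma, so it was not called. In this test 0.197% of features were called. It passed in 2 alternatives, with arrays scaled to equal spread (-1.12, adjusted p = 0.0144) and with array weights (-0.89, adjusted p = 0.0212). Klf5 differed by -0.58 ± 0.51 and Klf2 by -1.20 ± 1.70 in the same test, both with adjusted p = 1.

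Since the 13 comparisons connect all 7 lines, a second fit gave each line a level relative to the mean of the 7 lines. For Klf4 the order was #4 (B6) at -0.90 ± 0.08, ZFCUMNT at -0.35 ± 0.07, HM-1 at 0.06 ± 0.06, PDCUMNT at 0.14 ± 0.12, HM-1 NT at 0.14 ± 0.10, B6NT at 0.25 ± 0.08 and B6PGA at 0.66 ± 0.12 (SE; 8 to 24 arrays a line). Neighbours from HM-1 to B6NT did not differ beyond their errors. The steps below them were called: ZFCUMNT over #4 (B6) was 0.55 ± 0.12 (adjusted p = 0.0122, where 0.346% of features were called) and ZFCUMNT over HM-1 was -0.41 ± 0.10 (adjusted p = 0.0273, where 1.15% were). The call of ZFCUMNT over HM-1 was lost with any of 8 of the 13 comparisons left out (adjusted p from 0.0547 to 0.177), and without array 4 of its own comparison (0.0564). B6PGA over B6NT, at the upper end, was 0.41 ± 0.16 and not called (adjusted p = 0.604).

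Of the 21 pairs of lines 10 were called for Klf4, against 0.419% of all feature and pair tests. Only 6 of 17052 features (0.0352%) were called in 10 or more. All 6 pairs with #4 (B6) were among them, and 4 of the 15 pairs without it. Beside the pairs above, B6PGA over #4 (B6) was 1.56 ± 0.14, B6NT over #4 (B6) 1.15 ± 0.12 and #4 (B6) over HM-1 -0.96 ± 0.11 (SE). In these pairs 0.551%, 0.369% and 0.751% of features were called.

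A group of 3 called pairs had never been hybridised together and were measured only through other lines. PDCUMNT over #4 (B6) was 1.04 ± 0.16 (adjusted p = 0.000196), #4 (B6) over HM-1 NT was -1.04 ± 0.14 (adjusted p = 2.75e-05) and ZFCUMNT over B6PGA was -1.01 ± 0.16 (adjusted p = 0.000244). The shares of features called in them were 0.264%, 0.106% and 0.405%. The last called pairs were ZFCUMNT over B6NT at -0.60 ± 0.11 and B6PGA over HM-1 at 0.60 ± 0.14 (adjusted p = 0.00369 and 0.023, with 0.141% and 0.575% of features called). B6PGA over HM-1 lost its call without any 1 of 5 single arrays, which were arrays 1 and 2 of its own comparison and arrays 2, 3 and 4 of B6PGA over #4 (B6) (adjusted p from 0.0559 to 0.0657).

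These p-values treat 52 arrays as separate values. With the 4 arrays of each comparison averaged to 1 value, the estimates stayed as they were, 12 of the 21 pairs had an unadjusted p under 0.05 against 7.88% over all features, and none passed adjustment (lowest adjusted p = 0.0808, 7 residual degrees of freedom). Without the comparison of B6PGA with #4 (B6) 6 pairs were called. Without the 8 arrays that did not correlate positively with the other comparisons 11 were, with ZFCUMNT over HM-1 NT added at -0.73. With any 1 comparison left out, 5 of the 6 pairs with #4 (B6) kept their call. ZFCUMNT over #4 (B6) was the exception: its call was lost with each of 4 comparisons left out in turn (adjusted p from 0.0569 to 0.392), and without array 3 of its own comparison (0.0535). All 4 called pairs without #4 (B6) lost their call in at least 1 such setting. Beside ZFCUMNT over HM-1, described above, B6PGA over HM-1 lost it without #4 (B6) over HM-1 (0.56, adjusted p = 0.0837) or without B6PGA over #4 (B6) (0.36, adjusted p = 0.695). ZFCUMNT over B6NT lost it without its own comparison (-0.50, adjusted p = 0.351), and ZFCUMNT over B6PGA without B6PGA over #4 (B6) (-0.73, adjusted p = 0.131).

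**Figure D2:**
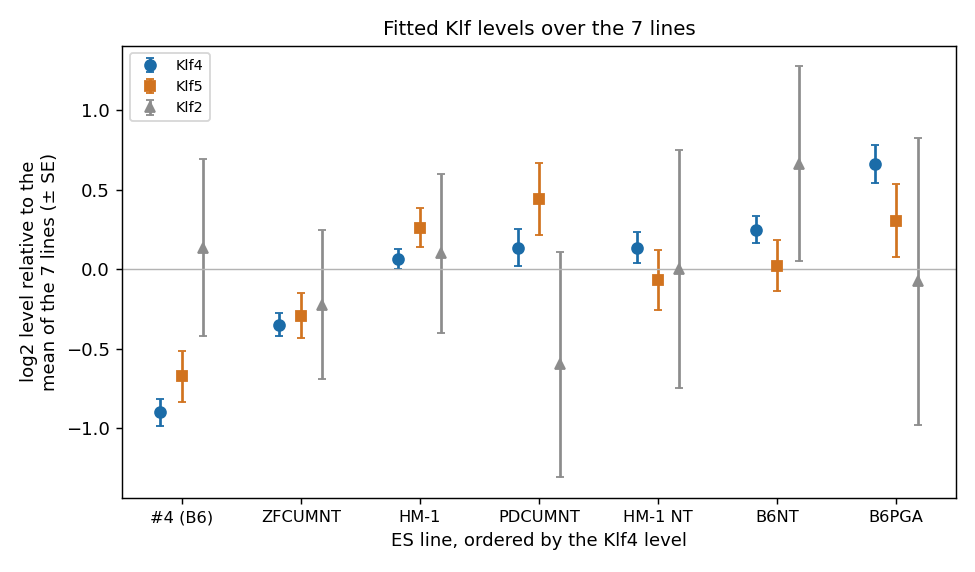
Fitted log2 levels of Klf4, Klf5 and Klf2 in the 7 lines, relative to the mean of the 7 lines, with standard errors. Klf4 and Klf5 are both lowest in #4 (B6), at -0.90 and -0.67, while the Klf2 bars overlap in all lines.

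Klf4 ratios lay near those predicted through other lines. For each comparison the direct value was set against the value from the other 12. The signs matched in 11 of 13 comparisons, with a correlation of 0.915 across the 13, which share lines and arrays. B6NT over #4 (B6) was 1.01 directly and 1.26 ± 0.16 indirectly, and B6PGA over #4 (B6) was 1.81 directly and 1.21 ± 0.21 indirectly. B6PGA over HM-1 went the other way, at 0.36 directly and 0.95 ± 0.22 indirectly. The test of whether the 7 loops of comparisons close did not call Klf4 (F = 1.03, adjusted p = 0.957), where 0.111% of features were called.

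**Figure D3:**
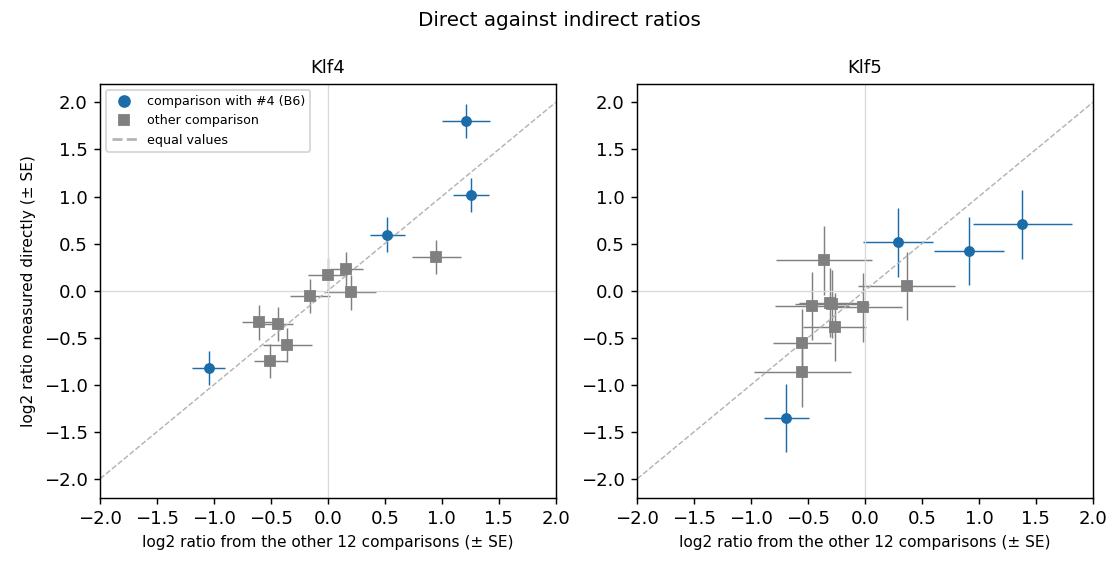
Log2 ratios of Klf4 and Klf5 measured directly in each of the 13 comparisons, against the ratios computed from the other 12, with standard errors and a dashed line of equality. Comparisons with #4 (B6), in blue, lie at both ends for Klf4, from -0.82 to 1.81.

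Klf5 (probe 203) was also measured on all 52 arrays, and none of its 13 comparisons was called. Its array standard deviation was 0.721. It had 4 arrays of 1 sign in 4 of 13 comparisons: #4 (B6) over HM-1, B6NT over #4 (B6), B6PGA over #4 (B6) and ZFCUMNT over PDCUMNT. Its lowest fit was #4 (B6) over HM-1, with -4.547, -0.531, -0.251 and -0.099. All 4 arrays were negative, but array 1 lay far below the others: the fit of -1.36 ± 0.36 (adjusted p = 0.156) was -0.37 without it.

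Positive Klf5 values were seen over #4 (B6), as for Klf4. B6PGA over #4 (B6) had 0.708, 0.079, 1.117 and 0.907 (fit 0.70, adjusted p = 0.526). B6NT over #4 (B6) had 0.797 and 0.731 with B6NT in Cy5 but 0.117 and 0.030 with it in Cy3 (fit 0.42). ZFCUMNT over #4 (B6) was split by dye as well, with -0.094 and 0.018 on arrays 1 and 2, and 1.158 and 0.969 on arrays 3 and 4 (fit 0.51).

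ZFCUMNT over PDCUMNT was negative on all 4 arrays, at -1.011, -1.155, -0.968 and -0.345 (fit -0.87, adjusted p = 0.29). ZFCUMNT over HM-1 had -0.747, -1.247, 0.279 and -0.501 (fit -0.55). HM-1 NT over HM-1 had -0.822 and -0.826 with HM-1 NT in Cy5, and 0.488 and 0.502 with it in Cy3, so the orientations had opposite signs and the fit was -0.16. The dye term over all arrays was -0.30 ± 0.10 for Klf5 (adjusted p = 0.0241), one of the 30.3% of features called for a dye effect, while that of Klf4 was 0.06 ± 0.05.

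Of the other 6 comparisons, 5 had Klf5 fits between -0.39 and 0.05. ZFCUMNT over B6NT was at -0.39, HM-1 NT over B6NT at -0.18, ZFCUMNT over HM-1 NT at -0.15, B6NT over HM-1 at -0.13 and PDCUMNT over HM-1 at 0.05. Beyond them, B6PGA over HM-1 was at 0.32, with array 4 at 1.423 and the other 3 between -0.333 and 0.240. All of these had arrays of both signs.

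**Figure D4:**
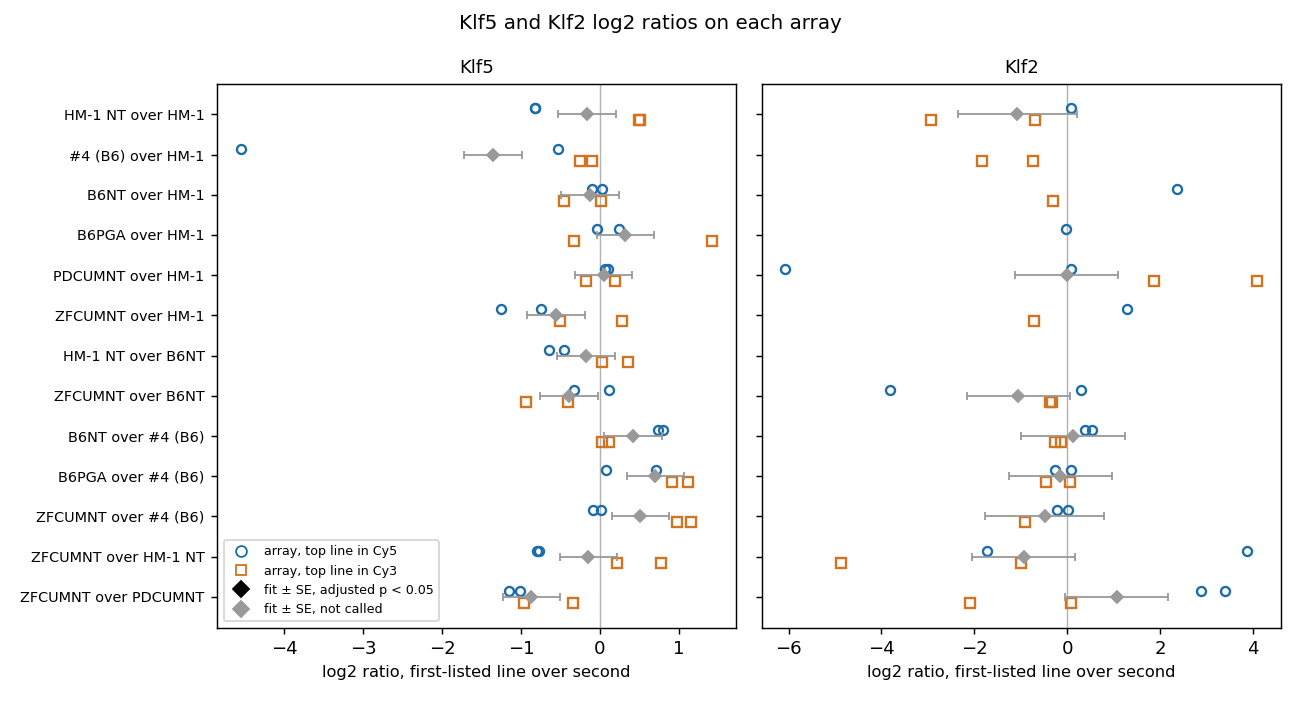
Klf5 (left) and Klf2 (right) log2 ratios on each array, by comparison and on different scales, with symbols as in the plot of Klf4 by array. Klf5 array 1 of #4 (B6) over HM-1 stands alone at -4.547, and Klf2 runs from -6.068 to 4.084 in PDCUMNT over HM-1.

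The fitted Klf5 levels ran from -0.67 ± 0.16 in #4 (B6) through -0.29 ± 0.14 in ZFCUMNT, -0.07 ± 0.19 in HM-1 NT, 0.02 ± 0.16 in B6NT, 0.26 ± 0.12 in HM-1 and 0.31 ± 0.23 in B6PGA to 0.44 ± 0.23 in PDCUMNT. No neighbours in this order were called apart. Klf5 was called in 1 of 21 pairs, #4 (B6) over HM-1 at -0.94 ± 0.21 (adjusted p = 0.0132), and 4.16% of features were called in at least 1 pair. Without the 8 arrays that did not correlate positively with the other comparisons it was -1.06 (adjusted p = 0.0204). That pair rests on the array at -4.547: without it the value was -0.59 (adjusted p = 0.0612), the level of #4 (B6) was -0.46 ± 0.12, and the 1 pair called was B6PGA over #4 (B6) at 0.81 (adjusted p = 0.0287). With all arrays B6PGA over #4 (B6) was 0.98 ± 0.27 (adjusted p = 0.0868) and PDCUMNT over #4 (B6) 1.12 ± 0.32 (adjusted p = 0.117).

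Klf4 and Klf5 had values of the same sign in 10 of 13 comparisons, with a correlation of 0.864 across comparisons and 0.852 across the 7 line levels. Without the array at -4.547 these were 0.872 and 0.857. The comparisons share lines, arrays and hybridisations, so the coefficients describe these arrays only. Klf5 directly measured and predicted ratios had the same sign in 12 of 13 comparisons (correlation 0.777).

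Klf2 (probe 16809) could be read much less well. It was measured on 37 of 52 arrays, was empty on 13 and stood at the constant top value on 2, which were treated as not measured. It could be tested in 8 comparisons, with no call, and its array standard deviation of 2.37 was larger than that of 99.4% of features. PDCUMNT over HM-1 had 0.087, -6.068, 1.867 and 4.084, and ZFCUMNT over HM-1 NT had -1.725, 3.861, -1.005 and -4.876. Such arrays of 1 comparison differ by more than any line difference of Klf4.

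In the comparisons where Klf4 was called, Klf2 had no call or could not be tested. B6NT over #4 (B6) had Klf2 values of 0.536, 0.380, -0.142 and -0.273 (fit 0.13 ± 1.11), and B6PGA over #4 (B6) had 0.073, -0.264, -0.460 and 0.067 (fit -0.15 ± 1.11). In #4 (B6) over HM-1 arrays 1 and 2 were at the top value, and arrays 3 and 4 had -0.741 and -1.826, too few to test. In none of the 6 comparisons with 4 measured arrays were all 4 of 1 sign. Line levels had standard errors of 0.47 to 0.90 and none of 21 pairs was called, so differences of the size seen for Klf4 were not detectable for Klf2 at this spread.

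Among 405 candidate genes, tested in all 13 comparisons and called in at least 1, the 5 whose values were most like those of Klf4 were Rif1 (correlation 0.887), Renbp (0.874), Sall1 (0.860), Dppa5a (0.813) and Prps1 (0.808). Over the 7 line levels 3 of the 5, Rif1, Renbp and Sall1, were again among the closest 5, as were 2 of 5 for Klf5 and 1 of 5 for Klf2, whose closest genes follow. Sall1, a zinc-finger gene expressed in mouse ES cells, was at 2.80 in B6PGA over #4 (B6), 1.62 in B6NT over #4 (B6) and -1.78 in #4 (B6) over HM-1. Rif1, which acts on telomeres and on the timing of DNA replication, had 1.14, 0.83 and -0.42 in the same order. For Klf5 the closest were Klf4, Dhx16 (0.826), Dppa5a (0.814), Kat6b (0.754) and Ftl1 (0.749), and for Klf2, over 8 comparisons, Sidt1 (0.872), U2af1l4 (0.855), Mllt1 (0.83), Rrp1b (0.807) and Fgfr1op2 (0.803). The candidates were chosen by calls in these same comparisons. Rif1 entered only through B6PGA over #4 (B6), where Klf4 was also called. Sall1 entered only through the 3 comparisons where Klf4 was called, and Dppa5a only through the 4 comparisons with #4 (B6). Klf5, at 0.864 with Klf4, had no call and could not enter. The comparisons share lines and arrays, so these correlations describe these arrays only and were not tested.

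Of the LIF, Stat3 and Erk pathway 17 of 25 listed genes were on the array and 16 were tested in each of the 3 comparisons where Klf4 was called, with no call. The list's median was 0.13 in B6PGA over #4 (B6), -0.02 in B6NT over #4 (B6) and -0.10 in #4 (B6) over HM-1, beside -0.02, 0.005 and -0.03 over all features. Stat3, which carries the LIF signal to Klf4, was at 0.04 ± 0.30, 0.24 ± 0.30 and 0.91 ± 0.30 (adjusted p = 0.999, 1 and 0.474). Over the line levels Stat3 was at 0.26 ± 0.14 in #4 (B6), -0.17 ± 0.14 in B6NT and -0.10 ± 0.11 in HM-1. The sign of B6NT over #4 (B6) thus turned there. The receptor subunit Il6st (gp130) was at 0.45, 0.23 and -0.13 in the 3 comparisons. Pim1, a kinase gene that is a Stat3 target, was at 1.59 ± 0.44 (adjusted p = 0.0596), 0.99 and -0.50, so it shared the signs of Klf4 without a call.

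The other Klf and Sp genes on the array numbered 10 of 22 listed, with no call in these comparisons and medians of -0.08, -0.11 and -0.05. Klf17, a germline and early-embryo member of the family, was at 1.89 ± 0.53 in B6PGA over #4 (B6) (adjusted p = 0.0646). It was at 1.64 ± 0.53 in B6NT over #4 (B6) (adjusted p = 0.357) and -0.04 in #4 (B6) over HM-1. Its line level was nonetheless -0.75 ± 0.26 in #4 (B6) and 0.18 ± 0.21 in HM-1. Klf6 was at -0.17, -0.69 and 0.38, and over the line levels it was called in B6NT over #4 (B6), at -0.74 (adjusted p = 0.00492), with the sign opposite to Klf4. Of the Wnt branch, where Tcf7l1 and Tcf7l2 bind with beta-catenin, 4 of 6 genes were on the array and none was called in these comparisons, with medians of -0.23, 0.16 and 0.14. Tcf7l2 was at -0.94 in B6NT over #4 (B6) (adjusted p = 0.0786), and over the line levels it was called there, at -0.74 (adjusted p = 0.019).

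Of 29 listed partners in the naive pluripotency circuit 18 were on the array. In B6PGA over #4 (B6) 4 of 17 tested were called, beside 1.22% of all features, and all 4 were positive: Sall1, Lefty2 at 1.74 ± 0.25, Rif1 and Dppa5a at 1.81 ± 0.20. In B6NT over #4 (B6) 3 of 17 were called, beside 0.245% of all features, again positive: Sall1, Lefty2 at 2.25 ± 0.25 and Dppa5a at 2.12 ± 0.20. In #4 (B6) over HM-1 4 of 18 were called, beside 0.219% of all features, and these 4 were negative: Zfp42 at -2.85 ± 0.41, Sall1, Lefty2 at -1.29 ± 0.25 and Dppa5a at -1.41 ± 0.20. Zfp42 was also at -2.90 in B6NT, -2.14 in B6PGA, -2.53 in PDCUMNT and -2.44 in ZFCUMNT over HM-1. Its low value over HM-1 was thus not particular to #4 (B6). Zfp42 (Rex1) is a marker of naive ES cells, Lefty2 a secreted inhibitor of Nodal, and Dppa5a an RNA-binding marker of pluripotent cells.

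Over the line levels 7 of 18 were called in #4 (B6) over HM-1, 6 negative and 1 positive, where 0.751% of all features were. The positive one was Dppa3, a maternal and germline factor, at 0.87 ± 0.21 (adjusted p = 0.0286), and Nr0b1 (-0.84) and Rif1 (-0.74) were added to the negative ones. The same 3 and 4 genes as above were called over the line levels in B6NT over #4 (B6) and B6PGA over #4 (B6), beside 0.369% and 0.551% of all features.

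The medians of that list were 0.28, 0.18 and -0.52 in these 3 comparisons. Nanog had no named probe on the array. The core genes that had one were not among the calls: Pou5f1 (Oct4) was at 0.32, 0.18 and 0.04, Sox2 at -0.24, 0.22 and 0.62, and Esrrb at 0.82, -0.81 and -1.35. Over the line levels some of these signs turned. Pou5f1 was at -0.35 in #4 (B6) and -0.26 in HM-1. Sox2 was at 0.07 in #4 (B6), 0.24 in HM-1 and -0.13 in B6NT. Esrrb was at -0.54 in #4 (B6) and -0.44 in B6NT. The other signs of these genes stayed. The called partners did not follow Klf4 in every comparison. In ZFCUMNT over #4 (B6), Dppa5a was at 2.04 ± 0.20 (adjusted p = 1.38e-08), beside 0.60 for Klf4, and in ZFCUMNT over B6NT it was at -0.12, beside -0.75 for Klf4. Lefty2, at -2.65 ± 0.25 in ZFCUMNT over B6NT, had the sign of Klf4 there. The comparisons with #4 (B6) share that line's RNA, so their lists are not independent of one another. The 2 primed epiblast genes on the array, Dnmt3a and Sox3, were not called in the 3 comparisons.

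Markers of fibroblasts, which serve as feeder cells for ES lines, are given for the comparisons where Klf4 was called, with 20 of 25 tested in each. In B6PGA over #4 (B6) their median was 0.24, with 12 positive and Lox called at 0.79 (1 of 20, beside 1.22% of all features). In B6NT over #4 (B6) the median was -0.26, with 4 positive and Col1a1 (-1.32) and Timp3 (-1.15) called (2 of 20, beside 0.245%). In #4 (B6) over HM-1 it was 0.49, with 16 positive and Vim called at 1.04 (1 of 20, beside 0.219%). Over the line levels 5 of 21 were called in #4 (B6) over HM-1, beside 0.751% of all features. All 5 were positive: Col1a1 at 0.66, Timp3 at 0.86, Vim at 1.11, Sparc at 1.09 and Ccdc80 at 1.40. In B6NT over #4 (B6) 3 were called, all negative, beside 0.369% of all features, and in B6PGA over #4 (B6) 1, positive, beside 0.551%. The fibroblast median in the direct comparisons had the sign of Klf4 in 1 of these 3 comparisons and the opposite sign in 2. In B6PGA over HM-1, where Klf4 was at 0.36, the fibroblast median was 1.05, with 20 of 21 positive and 8 called, beside 0.494% of all features.

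Of 7 trophectoderm markers Cdx2 was called in B6PGA over #4 (B6), at 1.13, beside 1.22% of all features, and none in the other 2 comparisons. None of 9 primitive endoderm, 3 cumulus and granulosa or 6 endothelial markers tested was called in the 3 comparisons. The shares over all features were 1.22%, 0.245% and 0.219%. Over the line levels Sparc, listed for primitive endoderm too, was called in #4 (B6) over HM-1 at 1.09 (1 of 10, beside 0.751%). These lists had no other call in the 3 pairs. The part of these cell types in the Klf values was not tested, and in bulk RNA fewer cells of a type and less RNA per cell cannot be told apart.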

How the data were processed

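Total RNA of the lines (20 microgram, reverse transcribed and labelled indirectly with Cy3 or Cy5) was hybridised on two-colour cDNA arrays, per the labels' protocols, which also speak of organs and a reference pool; the channel labels, with an ES line in each channel, were used. The authors' deposited table holds log ratios read as log2; scanner, background correction, normalization, log base and numerator dye are not given in the sources used here. Medians of single arrays lay between -0.209 and 0.469, and 17620 to 20200 probes were measured on an array. The number of arrays limits the precision. A top value of 15.717 to 17.351, shared by 20 to 174 probes of an array, was treated as missing, as decided after looking at the data. Symbols came from the platform annotation (12771 probes named), and probes of 1 symbol were averaged, giving 17053 features. The files' build is not given, so only promoter windows carry coordinates.

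Ratios were turned by the dye labels. All 52 arrays were fitted in limma 3.58.1 (R 4.3.3), with 1 coefficient per comparison, or 6 free line levels, and a dye term. A feature was tested in a comparison with at least 3 arrays in both orientations, and in a line pair with at least 10 residual degrees of freedom. The threshold was an adjusted p of 0.05. Scripts were tested on simulated data. Alternatives changed centring, scaling, top values, dye term, weights, filter, turning and the arrays used. Named genes were the 3 members, the 5 most like each, and listed genes called where Klf4 was, with other listed genes given as examples chosen after their values were seen. Members and lists were chosen with earlier results of these data known.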

Additional observations from a re-analysis of the deposited data

Results flagged for a closer look

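In 5 of the 32 sets of 4 arrays, 1 array lay apart from the other 3 by Dixon's criterion, which chance alone meets in about 1 set in 20. Klf5 in #4 (B6) over HM-1 was at -4.547 on array 1, with the others between -0.531 and -0.099. Klf4 in ZFCUMNT over #4 (B6) was at -0.011 on array 4, with the others between 0.740 and 0.836. Klf4 in B6NT over HM-1 was at 0.496 on array 1, with the others between 0.125 and 0.162, and in PDCUMNT over HM-1 at 0.119 on array 2, with the others between -0.074 and -0.059. Klf2 in ZFCUMNT over B6NT was at -3.807 on array 1, with the others between -0.375 and 0.291.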

How the results depend on the processing

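Klf4 was called in 3 of the 13 comparisons. It was called in 4 with array medians subtracted, arrays centred and scaled, top values kept or array weights. It was called in 2 with no dye term or without the 8 arrays that did not correlate positively with the other comparisons. It was called in 0 with each comparison fitted alone (adjusted p from 0.48) or with ratios left as they stand. Without the dye term #4 (B6) over HM-1 lost its call (adjusted p = 0.0649). Leaving out 1 array gave 2 to 4 Klf4 comparisons, and none for Klf2 or Klf5. The Klf4 NT difference became called with arrays scaled (-1.12) and with array weights (-0.89). Calls over all features and comparisons numbered 1096, 1946 with array weights, 597 with no dye term, 0 with each comparison fitted alone and 4511 as the ratios stand. The array numbers did not pair the arrays (mean correlation of same-numbered arrays -0.033, as between other numbers of the same orientation). A replicate block added to the dye term changed no Klf call in the comparisons, with 1000 feature calls.

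Over the 21 line pairs Klf4 was called in 10. It was called in 0 with the arrays of a comparison averaged, in 0 as the ratios stand, in 6 without B6PGA over #4 (B6), and in 8 to 11 otherwise. Klf5 had 1 call, and 0 averaged, as they stand or without ZFCUMNT over #4 (B6). Feature calls were 1501, 2421 scaled, 943 with no dye term, 2707 with array weights, 34 averaged, 7637 as they stand and 1444 with the replicate block.

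With ratios as they stand, which undoes the dye labels, these values changed sign: Klf4 in PDCUMNT over HM-1 (0.0503), ZFCUMNT over HM-1 (0.107), HM-1 NT over B6NT (0.121), ZFCUMNT over B6NT (0.216) and B6NT over #4 (B6) (-0.0258), and its NT difference (0.0645); Klf5 in B6NT over HM-1 (0.0898), B6PGA over HM-1 (-0.223), ZFCUMNT over B6NT (0.284), B6PGA over #4 (B6) (-0.309) and ZFCUMNT over #4 (B6) (-0.551); and Klf2 in HM-1 NT over HM-1 (1.20), B6PGA over #4 (B6) (0.0505), ZFCUMNT over #4 (B6) (0.281) and ZFCUMNT over HM-1 NT (2.00), and its NT difference (0.863). Klf2 then had 1 called comparison and 1 called pair. Over the line levels Klf4 turned in #4 (B6) over HM-1 (0.00863), ZFCUMNT over HM-1 (0.106), B6NT over #4 (B6) (-0.0165) and ZFCUMNT over B6NT (0.114). In PDCUMNT over HM-1, Klf2 turned with medians subtracted (0.0419), arrays scaled (0.122) and array weights (0.972), and Klf4 with medians subtracted (0.0292) and arrays scaled (0.0273). None of these values was called after its sign changed.

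Leaving out 1 array turned the sign of some values that were not called. The ranges were -0.0473 to 0.0136 for Klf4 and -0.0717 to 0.225 for Klf5 in PDCUMNT over HM-1, -0.121 to 0.0235 for Klf4 in HM-1 NT over B6NT and -0.280 to 0.0844 for Klf5 in B6NT over HM-1. For Klf2 they were -1.55 to 2.22 in PDCUMNT over HM-1, -1.43 to 0.0221 in ZFCUMNT over B6NT, -0.338 to 0.0135 in B6PGA over #4 (B6) and -2.48 to 0.313 in ZFCUMNT over HM-1 NT. The setting that left out 8 arrays, and leaving out single arrays in the line levels, were added after seeing the data. The causes of these changes were not tested. Fewer samples or fewer shared values are part of the fits of single comparisons and of averaged arrays.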
